A study of Equus caballus with 2 samples.

Results

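Genes of cholesterol synthesis and its control were examined in equine endometrial fibroblasts cultured with or without transforming growth factor β1 (TGF-β1). The 8 genes were taken by symbol from the 21426 genes of the count tables: *HMGCS1* (ENSECAG00000008637), *IDI1* (ENSECAG00000024977), *FDFT1* (ENSECAG00000021133), *SQLE* (ENSECAG00000013998), *LSS* (ENSECAG00000008899) and *DHCR7* (ENSECAG00000023341), which encode enzymes of the pathway, and *INSIG1* (ENSECAG00000020022) and *SREBF2* (ENSECAG00000024608), which control it. None of the 8 is an uptake gene. Cholesterol uptake is therefore described through a list of other genes, which stands beside the 8 members.

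Cells make cholesterol from acetyl-CoA through mevalonate, isoprenoid units, squalene and a series of sterols, and they also take it up from lipoproteins. Both supplies are largely set by the membrane protein SREBP2, encoded by *SREBF2*. When sterols in the endoplasmic reticulum run low, SCAP carries SREBP2 to the Golgi apparatus, where it is cut and freed as a transcription factor for nearly all the enzymes and for uptake. When sterols are plentiful, INSIG proteins hold SCAP back. Its targets are thus known as a set of genes that tends to be switched together, and cholesterol is needed for the membranes of fibroblasts as of other cells.

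Collagen-coated hydrogels carried passage 3 fibroblasts isolated from the endometrium of 4 mares, whose serum was lowered and then replaced by bovine serum albumin. During that last phase the control received nothing else, and the treated cells received 10 ng/ml human recombinant TGF-β1 for 24 h. For each condition, cells of the 4 mares were pooled and made into 1 droplet library, which counts transcripts by unique molecular identifiers (UMIs). Cells treated with MFGE8 are not analysed here. Cells had to hold 20000 UMIs and 3500 genes or more and less than 4% mitochondrial UMIs, which left 3865 of 4384 barcodes of the control and 4513 of 5124 of the TGF-β1 library. These cells held 210497250 UMIs (control) and 219731144 UMIs (TGF-β1), and the median cell had 50313 and 43142. The libraries shared 6 barcodes, 2 of them among the kept cells. All 8 fibroblast markers were detected, with 21499 summed CPM (counts scaled to 1000000 UMIs) in control and 21707 in TGF-β1 cells. The epithelial marker *EPCAM*, the endothelial marker *CDH5* and the immune markers *PTPRC* and *LYZ* had at most 3 UMIs per library. The summed epithelial list was 134 CPM in control and 12.3 CPM in TGF-β1 cells, almost all of it *KRT8* and *KRT7*, and the part of this difference in the values below was not tested. There is 1 library per condition, so library and treatment cannot be told apart, no test was made, and the 95% intervals given are exact binomial intervals that cover counting error only.

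The 8 genes differed little between the libraries, with a slightly higher level after TGF-β1. Together they made up 561 CPM of the control and 628 CPM of the TGF-β1 UMIs, 1.12-fold or a log2 ratio (TGF-β1 over control) of 0.16 (0.15 to 0.17), from 118105 and 138041 UMIs. *IDI1* carried most of that difference. Without it the sum was 378 CPM in control and 395 CPM in TGF-β1 cells, a log2 ratio of 0.06 (0.05 to 0.08) over all kept cells. By UMIs per cell, this ratio ran from 0.35 (30000 to 40000 UMIs) to -0.09 (80000 or more), in bands chosen after seeing the data. Of the 8 members 7 were higher and 1 was lower after TGF-β1. The counting intervals of *FDFT1*, *LSS* and *DHCR7* included 0. Among the 7658 genes that averaged 10 CPM or more, 51.4% were higher. The median log2 ratio of the members was 0.06, and that of the 7658 genes was 0.008. A difference of more than 25% of the lower level was seen for 1 of the 8 members, *IDI1*, beside 30.8% of the 7658 genes (15.7% higher and 15.1% lower after TGF-β1). None of the 8 passed 1.5-fold or 2-fold in these libraries, limits that 12.7% and 4.43% of the 7658 genes passed. With 1 library per condition no member was tested, and the count of 0 is one of size alone. *LSS* had under 10 CPM and is not among the 7658 genes, while the other 7 are.

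*HMGCS1*, the earliest step among the 8 members, encodes the cytosolic synthase that adds acetyl-CoA to acetoacetyl-CoA to give HMG-CoA. *HMGCS1* had 110 CPM in control and 117 CPM in TGF-β1 cells, from 23196 and 25706 UMIs. Its log2 ratio was 0.09 (0.06 to 0.11) over all kept cells, and 0.287 in cells with 30000 to 60000 UMIs. After every cell was thinned to 20000 UMIs, 74.7% of control cells and 77.8% of TGF-β1 cells held a UMI of *HMGCS1*. *IDI1*, the isomerase that readies the isoprenoid units for joining, differed most. It had 183 CPM in control and 233 CPM in TGF-β1 cells, from 38593 and 51274 UMIs, a log2 ratio of 0.35 (0.33 to 0.37) or 1.27-fold. Its ratio lay at percentile 85.8 of the 7658 genes. In cells with 30000 to 60000 UMIs the log2 ratio of *IDI1* was 0.460. The thinned share of cells with *IDI1* was 90.3% in control and 95.7% in TGF-β1 cells. No cell type that lacks these genes was identified, so the contribution of free RNA to shares of cells was not measured.

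The squalene and sterol steps of the 8 genes differed little over all kept cells. *FDFT1* encodes squalene synthase, the first step committed to sterols, and had 82.6 CPM in control and 83.7 CPM in TGF-β1 cells, a log2 ratio of 0.02 (-0.01 to 0.05). *SQLE*, the squalene epoxidase and a second control point of the pathway, had 87.2 CPM and 91.5 CPM, a log2 ratio of 0.07 (0.04 to 0.10). *LSS*, the cyclase that closes the sterol rings, had 1626 UMIs in control and 1689 in TGF-β1 cells, or 7.73 and 7.69 CPM. Its log2 ratio was -0.01 (-0.11 to 0.09), and a difference was not detectable at this depth. *DHCR7*, the reductase of the last step to cholesterol in one branch, had 25.9 CPM and 26.8 CPM, a log2 ratio of 0.05 (0.00 to 0.10). Its interval began just under 0 (0.997-fold to 1.07-fold). The log2 ratio in cells with 30000 to 60000 UMIs was 0.08 for *FDFT1*, 0.20 for *SQLE* and 0.13 for *DHCR7*. Each lay above its counting interval over all kept cells. For *LSS* it was 0.04, inside its interval. The shares of thinned cells with *FDFT1* (73.8% and 77.6%), *SQLE* (71.8% and 76.6%), *LSS* (13.6% and 13.4%) and *DHCR7* (36.6% and 38.2%) differed most for *SQLE* between control and TGF-β1 cells.

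The control genes stood near these enzymes. *SREBF2* had 31.5 CPM in control and 32.9 CPM in TGF-β1 cells, a log2 ratio of 0.06 (0.01 to 0.11). In cells with 30000 to 60000 UMIs the ratio of *SREBF2* was 0.126. *INSIG1*, which holds the SREBP2 complex in the endoplasmic reticulum and is itself a target of SREBP2, had 32.5 CPM and 35.3 CPM, a log2 ratio of 0.12 (0.07 to 0.17). These are levels of RNA, and the cutting of SREBP2 that sets its activity was not measured.

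The other enzymes of the pathway were mostly higher after TGF-β1. Of the 14 other synthesis enzymes, 12 were higher after TGF-β1 and 2 lower, with a median log2 ratio of 0.26 and a range of -0.16 to 0.64. Of the 7658 genes, 51.4% were higher, with a median of 0.008. *FDPS*, which takes up the product of *IDI1* to make farnesyl pyrophosphate, was the 1 of the 14 past 1.5-fold, beside 12.7% of the 7658 genes. It had 223 CPM in control and 349 CPM in TGF-β1 cells, a log2 ratio of 0.64 (0.63 to 0.66). *MVD*, the step just before *IDI1*, had a log2 ratio of 0.31 (0.28 to 0.34). After *LSS*, *CYP51A1* had 229 CPM in control and 275 CPM in TGF-β1 cells (0.26, 0.24 to 0.28). *SC5D*, which acts just before *DHCR7*, had a log2 ratio of 0.28 (0.26 to 0.31). In all, 7 of 7 genes of the mevalonate steps were higher after TGF-β1, with a median log2 ratio of 0.31, as were 10 of the 12 genes of the squalene and sterol steps with at least 10 CPM, with a median of 0.06.

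Sensing, uptake and efflux genes went both ways. Among the 8 sensing genes with at least 10 CPM, 4 were higher and 4 lower and none differed by more than 25%. *SCAP*, the escort of SREBP2, had a log2 ratio of -0.22 (-0.27 to -0.17), and *INSIG2*, a relative of *INSIG1*, one of -0.18 (-0.26 to -0.10). *SREBF1*, which codes for the related factor of fatty acid synthesis, had 7.09 CPM in control and 9.42 CPM in TGF-β1 cells, a log2 ratio of 0.41 (0.31 to 0.51). *MYLIP*, a ubiquitin ligase that lowers lipoprotein uptake, was 20.4 CPM in control and 53.3 CPM in TGF-β1 cells, a log2 ratio of 1.39 (1.34 to 1.44). It was the 1 gene past 1.5-fold among the 8 uptake genes with at least 10 CPM, of which 4 were higher and 4 lower. Of the 7658 genes, 12.7% were past 1.5-fold and 51.4% were higher. *ABCA1*, which exports cholesterol, had 7.02 CPM and 11.4 CPM, a log2 ratio of 0.70 (0.60 to 0.79). The genes of the oxysterol receptors LXR, chosen after their values were seen, were lower after TGF-β1, *NR1H3* at 7.97 CPM in control and 4.50 CPM in TGF-β1 cells (-0.83, -0.94 to -0.71) and *NR1H2* at 30.5 and 25.4 CPM (-0.26, -0.32 to -0.21). Of the 8 efflux and oxysterol genes with at least 10 CPM, 3 were higher and 5 lower, with none past 1.5-fold.

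Fatty acid genes, some of which share SREBP control with the 8 members, were mostly higher after TGF-β1. Of 10 with at least 10 CPM, 9 were higher and 1 lower, and the median log2 ratio was 0.43. Those past 1.5-fold were the desaturases *FADS2* (18.5 to 40.9 CPM from control to TGF-β1, log2 ratio 1.14) and *FADS1* (58.0 to 117 CPM, 1.01) and the acyl-CoA synthetase *ACSL3* (82.5 to 150 CPM, 0.87). All 3 ratios lay above that of every cholesterol member. Of the 7658 genes, 51.4% were higher and 12.7% were past 1.5-fold. The 5 other isoprenoid genes with at least 10 CPM had 3 higher and 2 lower, and none passed 1.5-fold.

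**Figure D1:**
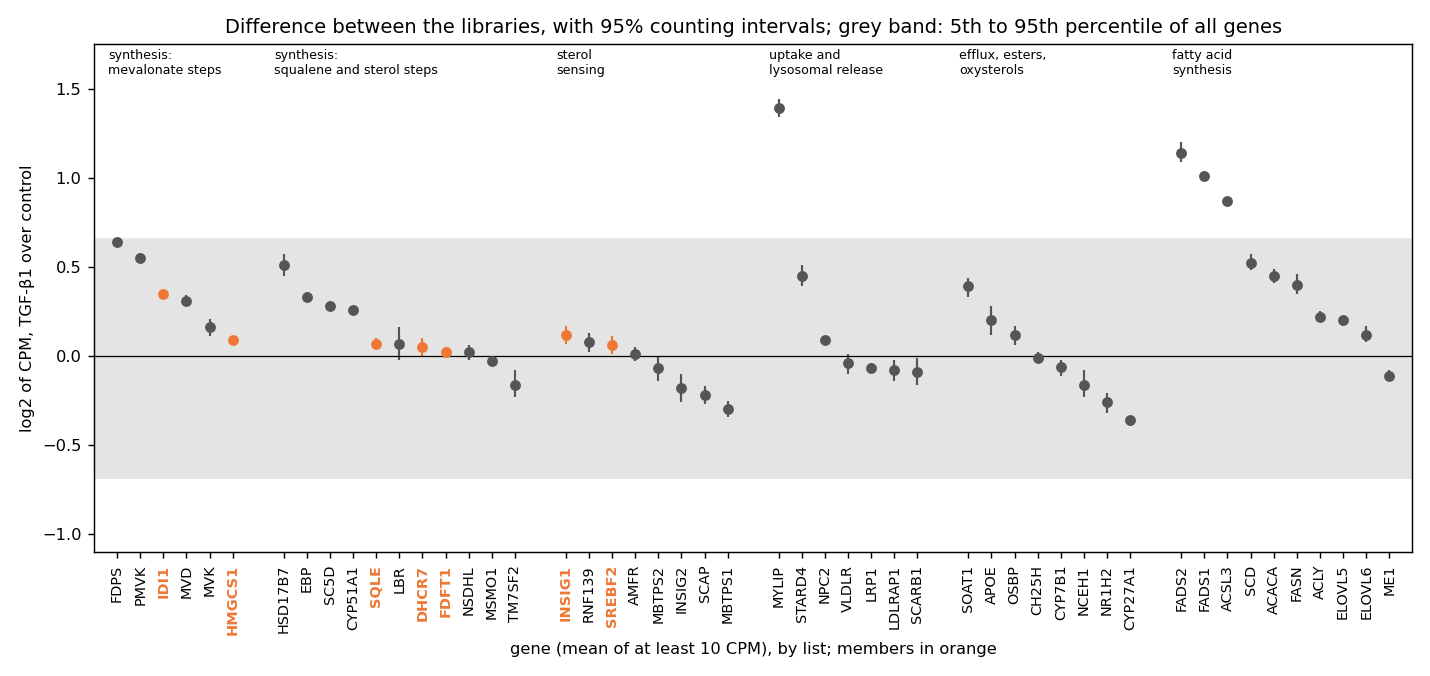
The y axis is the log2 ratio of CPM in the TGF-β1 library over the control library for listed genes that averaged 10 CPM or more, grouped by list along the x axis, with 3 genes not drawn. Orange points are members (*LSS*, under 10 CPM, is not drawn), bars are 95% counting intervals, and the grey band holds the middle 90% of 7658 genes. Members lie between 0.02 and 0.35, inside the band, and *MYLIP*, *FADS2*, *FADS1* and *ACSL3* lie above it.

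The difference between the libraries depended on how many UMIs a cell held, which was examined in bands chosen after seeing the data. In control cells the 8 members together took 388 CPM in cells with 20000 to 30000 UMIs, 420 CPM with 30000 to 40000, 515 CPM with 40000 to 50000, 576 CPM with 50000 to 60000, 630 CPM with 60000 to 80000 and 624 CPM from 80000 up. The TGF-β1 cells had 487, 590, 650, 673, 632 and 639 CPM in the same bands. Levels thus climbed with depth up to 60000 UMIs in both libraries, and the gap between the libraries was widest in cells under 50000 UMIs.

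The log2 ratio was 0.33 (0.24 to 0.41) in the lowest band, 0.49 (0.46 to 0.53) at 30000 to 40000 UMIs and 0.34 (0.31 to 0.36) at 40000 to 50000, and came down to 0.22 (0.20 to 0.25) at 50000 to 60000, 0.00 (-0.02 to 0.03) at 60000 to 80000 and 0.03 (0.01 to 0.06) above. *IDI1* was higher after TGF-β1 in all 6 bands, with log2 ratios of 0.70, 0.77, 0.51, 0.35, 0.14 and 0.26 from the lowest band up. For the other 7 members together the ratio turned from 0.35 (0.30 to 0.39) at 30000 to 40000 UMIs to -0.09 (-0.12 to -0.06) at 80000 UMIs and more. UMIs per cell mix cell size, RNA content and capture, which cannot be told apart here, and the bands hold unequal numbers of cells, from 140 control cells in the lowest to 1379 TGF-β1 cells.

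**Figure D2:**
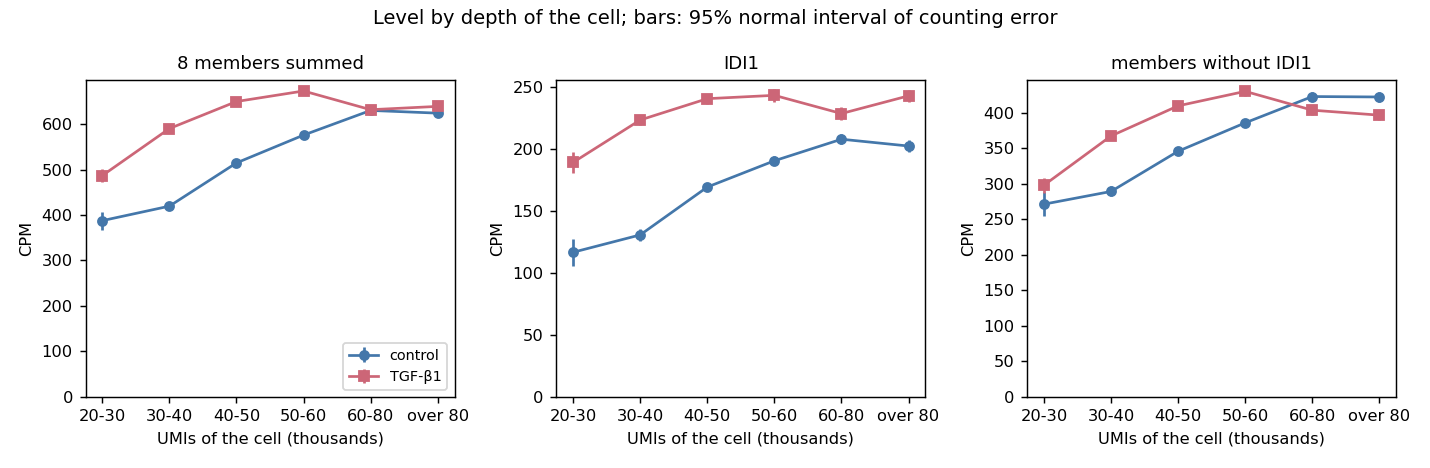
The y axis is the CPM of the 8 members summed, of *IDI1* and of the other 7 members, against bands of UMIs per cell on the x axis, with control as blue circles and TGF-β1 as red squares. Bars are 95% normal intervals of counting error. The curves are apart at 30000 to 50000 UMIs and meet above 60000 for the sum, while *IDI1* stays higher in TGF-β1 cells throughout.

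Clusters rebuilt without the sterol and fatty acid genes showed the members in every cluster. Over the 8 clusters, the summed level ran from 326 CPM (cluster 7) to 690 CPM (cluster 6) in control cells and from 490 CPM (cluster 5) to 673 CPM (cluster 3) in TGF-β1 cells. The highest cluster was 2.11-fold the lowest in control and 1.37-fold in TGF-β1 cells. Between the libraries, the log2 ratio of the sum ran from -0.05 to 0.61 over the clusters. The sum was higher in TGF-β1 cells in 7 clusters. Without integration of the libraries, only 1 of 9 clusters held at least 50 cells of each, and there the direction turned, with a log2 ratio of -0.10. The exception with integration was cluster 6, a cycling-like cluster in which all 9 cycling markers found were over 2-fold higher than in other cells, and there the sum was 690 CPM in control and 665 CPM in TGF-β1 cells, a log2 ratio of -0.05 (-0.10 to 0.00).

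Cluster 7, of 127 control and 70 TGF-β1 cells and led by *CA4* and *GDF15*, had the widest difference. Its summed level was 326 CPM in control and 498 CPM in TGF-β1 cells, a log2 ratio of 0.61 (0.52 to 0.70). In it, *IDI1* had 88.8 CPM in control and 178 CPM in TGF-β1 cells (1.00, 0.84 to 1.17), and *SQLE* had 51.5 CPM and 87.2 CPM (0.76, 0.53 to 0.99). Both were past 1.5-fold there, as was *LSS* (0.73, -0.09 to 1.54) on 31 and 25 UMIs. *DHCR7* did not follow them, with 15.3 CPM in control and 14.9 CPM in TGF-β1 cells (-0.04, -0.56 to 0.46).

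Members ranked clusters differently. In control cells, cluster 5 had the lowest *SREBF2* level of the 8 clusters (17.4 CPM, against 37.9 CPM in cluster 1) and the lowest *HMGCS1*, tied with cluster 7 at 61.9 CPM, against 137 CPM in cluster 3. *FDFT1* in the same cluster 5 was 102 CPM, next to its highest level. *DHCR7* was 37.9 CPM in the cycling-like cluster and 15.3 CPM in cluster 7. *IDI1* was higher after TGF-β1 in 7 of 8 clusters with 7 intervals above 0, and *INSIG1* was higher in all 8 clusters with 1 interval above 0. *FDFT1* was higher in 4 clusters and *DHCR7* in 3, and both were lower in the cycling-like cluster (-0.26, -0.40 to -0.13 for *FDFT1*, and -0.24, -0.46 to -0.02 for *DHCR7*). Clusters are not replicates, since they share the library and the mares.

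**Figure D3:**
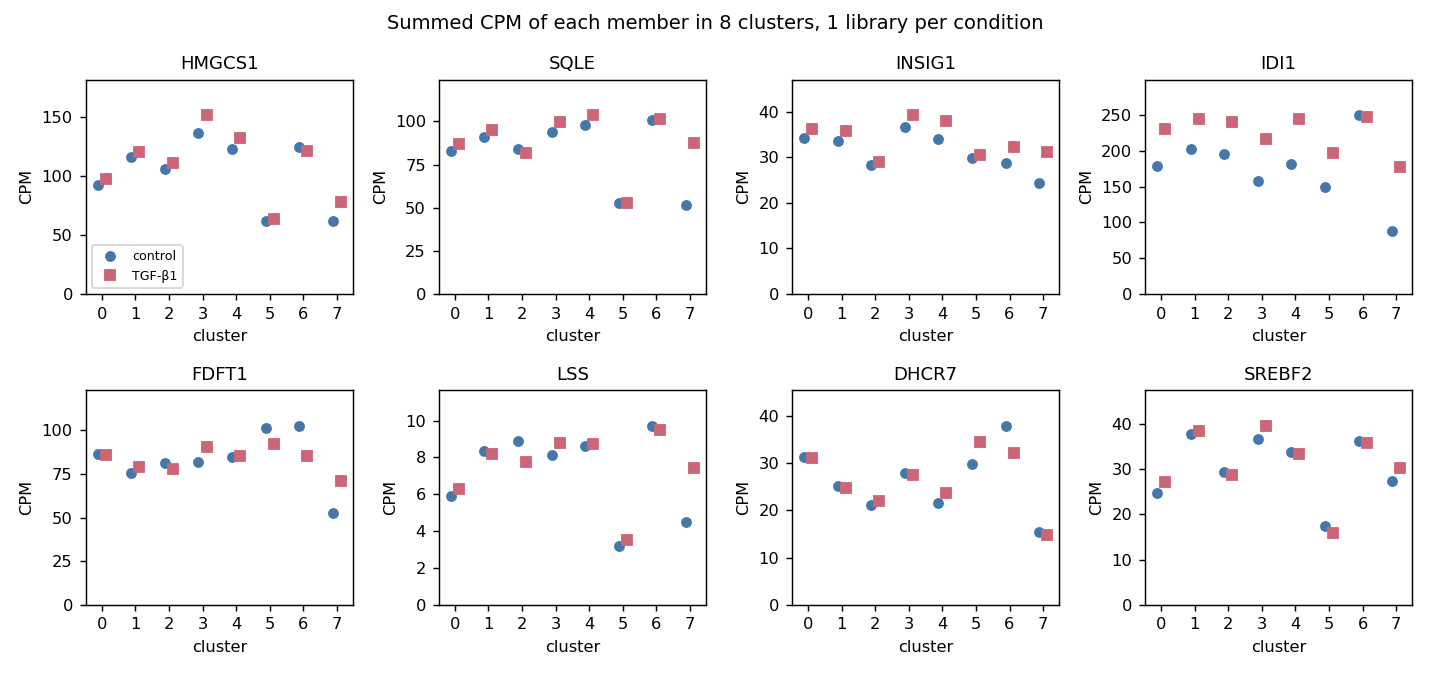
The y axis is the CPM of each member, summed over the cells of a cluster, and the x axis the 8 rebuilt clusters, with control as blue circles and TGF-β1 as red squares. *IDI1* is higher in TGF-β1 cells in all clusters but the cycling-like cluster 6, and control cells of cluster 7 are the lowest for *IDI1*, *FDFT1*, *SQLE* and *INSIG1*.

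Single cells of a library differed widely in the members, counting noise included. Thinned to 20000 UMIs, a control cell held a mean of 10.8 UMIs of the 8 genes (5th to 95th percentile 3 to 22, highest 42), and a TGF-β1 cell 12.3 (4 to 23, highest 59). In 18 control and 3 TGF-β1 cells none was found. The variance of the sum was 3.36 times its mean in control and 2.84 times in TGF-β1 cells, where pure counting noise would give a value of 1. *HMGCS1* (2.21 and 2.22) and *IDI1* (2.15 and 1.90) had the widest spread among the 8 members by this measure. *SREBF2* (1.09 and 1.07) and *LSS* (1.05 and 1.06) lay close to counting noise. The measure grows with the mean, and its median over the 7658 genes was 1.15 in control and 1.14 in TGF-β1 cells.

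*HMGCS1*, *SQLE*, *IDI1* and *FDFT1* varied together over cells, and most other pairs of members had lower correlations. Pearson r of log2(1 + thinned UMIs) was above 0 for 28 of the 28 pairs of members over the 3865 control cells and for 26 over the 4513 TGF-β1 cells, with a median of 0.099 and 0.072. It was above 0.1 for 13 pairs in control and 9 in TGF-β1 cells. *HMGCS1* and *SQLE* were the closest pair, with r = 0.356 in control and 0.284 in TGF-β1 cells. In control cells they were followed by *HMGCS1* with *IDI1* (0.299 and 0.239) and *SQLE* with *IDI1* (0.270 and 0.176), and in TGF-β1 cells *HMGCS1* with *FDFT1* (0.203) came before the latter. *FDFT1* joined these enzymes at 0.184 to 0.218 in control and 0.143 to 0.203 in TGF-β1 cells. *SREBF2*, in contrast, reached at most 0.083 with any of the other 7 members in either library, and the pairs of the low gene *LSS* reached 0.111. Values of about 0.1 or less in sparse counts are not read as relations, and the counts of pairs above 0 and their medians rest largely on such values. Cells of a library share the droplet run and mix 4 mares that could not be separated here, so part of r can come from differences between mares, which was not tested.

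**Figure D4:**
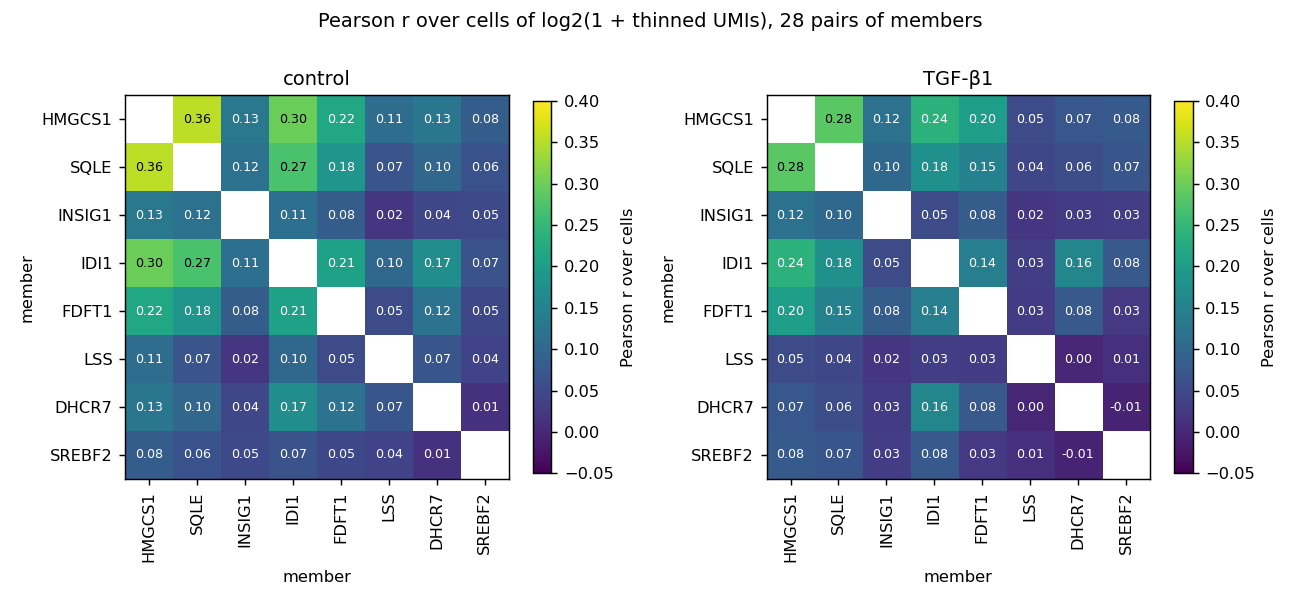
Each square gives Pearson r over cells of log2(1 + thinned UMIs) for a pair of members, in the control library (left, 3865 cells) and the TGF-β1 library (right, 4513 cells), with colour from low (dark) to high (yellow). *HMGCS1*, *SQLE*, *IDI1* and *FDFT1* form the brighter block, topped by 0.36 for *HMGCS1* with *SQLE* in control cells, and *SREBF2* and *LSS* rows stay dark.

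Each member was then set against the sum of the other 7, and r with the sum of all 8 was taken for 7651 genes that are not members. For *HMGCS1*, r was 0.423 in control and 0.358 in TGF-β1 cells, and 3 and 1 of the 7651 genes had a higher r with the same sum. *IDI1* (0.382 and 0.30) and *SQLE* (0.379 and 0.298) were each passed by 3 genes in either library. *FDFT1* (0.285 and 0.228) was passed by 15 and 8 genes, *DHCR7* (0.199 and 0.149) by 53 and 43, and *INSIG1* (0.167 and 0.125) by 100 and 93. The regulator *SREBF2* (0.096 and 0.095) was passed by 426 genes in control and 247 in TGF-β1 cells, and *LSS* (0.132 and 0.063) by 213 and 737. The members differ in their counts, and the part of this in the order of r was not tested.

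A deep cell had more of the members, with r of 0.249 in control and 0.153 in TGF-β1 cells between the summed members and log2 UMIs of the cell before thinning. With depth and cluster means taken out of both sides, an alternative chosen after seeing the data, *HMGCS1* kept r of 0.388 in control and 0.342 in TGF-β1 cells. The other members lay between 0.071 and 0.346 in control and between 0.053 and 0.294 in TGF-β1 cells.

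The genes most like the summed members over cells were largely the other enzymes of the pathway. By the lower r of the 2 libraries, the 10 genes with a symbol that came first included *CYP51A1* (0.466 in control and 0.395 in TGF-β1 cells), *MSMO1* (0.433 and 0.358), *FDPS* (0.442 and 0.335), *FABP3* (0.352 and 0.277), *SC5D* (0.324 and 0.258), *C1QTNF3* (0.320 and 0.251), *PRUNE2* (0.284 and 0.236) and *MVD* (0.302 and 0.226). Of these 8 genes, 5 are synthesis enzymes, and *CYP51A1*, the demethylase after *LSS*, ranked at 1 in both libraries. The 95th percentile over the 7651 genes was 0.101 in control and 0.081 in TGF-β1 cells. *FABP3*, a fatty acid binding protein, *C1QTNF3*, a secreted relative of complement C1q, and *PRUNE2* are in none of the sterol and lipid lists. With depth and cluster means taken out, r was 0.333 and 0.278 for *FABP3*, 0.237 and 0.227 for *C1QTNF3*, and 0.207 and 0.182 for *PRUNE2*. The 5 synthesis enzymes then lay between 0.291 and 0.438 in control and between 0.243 and 0.376 in TGF-β1 cells. *FABP3* had 157 CPM in control and 277 CPM in TGF-β1 cells, and *C1QTNF3* had 598 and 1008 CPM.

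Of the 8 genes named above, 7 were higher after TGF-β1, and *FDPS*, *FABP3* and *C1QTNF3* were past 1.5-fold. The exception was *MSMO1*, which stood in the first 3 genes in both libraries by r and had 446 CPM in control and 436 CPM in TGF-β1 cells. The 6 sensing genes with at least 10 CPM that are not members had a median r of 0.002 in control and 0.009 in TGF-β1 cells. All 10 fatty acid genes had r above 0 in both libraries (0.066 to 0.245 in control, 0.058 to 0.192 in TGF-β1 cells), and r of their summed list with the summed members was 0.362 and 0.302.

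By the higher r of the 2 libraries, the 5 genes with a symbol that came last were *CYBA* (-0.211 in control and -0.222 in TGF-β1 cells), *BAX* (-0.322 and -0.194), *MMP2* (-0.258 and -0.161), *RPS27L* (-0.254 and -0.157) and *CTSD* (-0.224 and -0.157). With depth and cluster means taken out, these 5 lay between -0.246 and -0.175 in control and between -0.201 and -0.126 in TGF-β1 cells. *CYBA* encodes a subunit of the NADPH oxidase, *BAX* a promoter of cell death, *MMP2* a gelatinase and *CTSD* a lysosomal protease. *BAX* had 3053 CPM in control and 1344 CPM in TGF-β1 cells. Whether reads of genes next to *BAX* were counted to it was not tested.

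**Figure D5:**
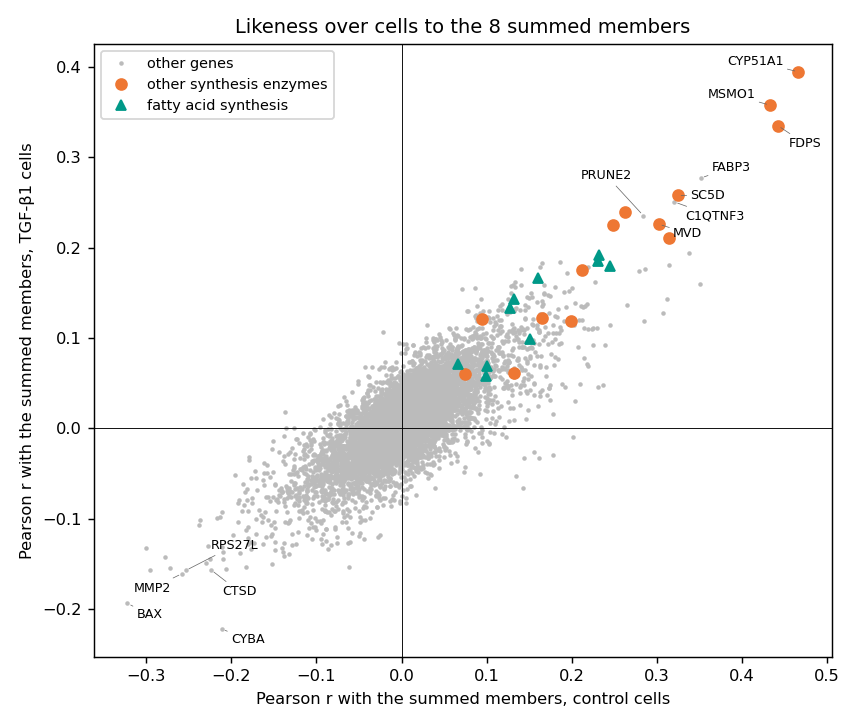
Each point is 1 of 7651 genes that are not members, at its Pearson r over cells with the 8 summed members in the control library (x axis) and in the TGF-β1 library (y axis). Orange circles are other synthesis enzymes, green triangles fatty acid genes and grey points the rest, and labels mark 8 of the 10 highest and the 5 lowest genes. *CYP51A1*, *MSMO1* and *FDPS* lie apart at the upper right, and *BAX* and *CYBA* at the lower left.

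In plain levels, the 25% of control cells with the lowest sum of the other members held a mean of 1.04 thinned UMIs of *HMGCS1* and the 25% with the highest sum 3.34, or 3.22-fold, over 966 cells each. In TGF-β1 cells these means were 1.34 and 3.39 (2.53-fold, 1128 cells each). The same fold was 2.78 and 1.99 for *SQLE*, 2.17 and 1.65 for *IDI1*, 2.06 and 1.71 for *FDFT1*, and 1.38 and 1.42 for *SREBF2*, in control and TGF-β1 cells. For *SQLE* the means were 0.883 in control and 1.21 in TGF-β1 cells with the lowest sums, and 2.45 and 2.41 with the highest. For *IDI1* they were 2.30 and 3.45 with the lowest sums, and 4.99 and 5.67 with the highest, and for *SREBF2* 0.533 and 0.539 with the lowest, and 0.734 and 0.766 with the highest. The cells were ranked within each library, so the cells with the lowest sums in control and TGF-β1 do not hold the same sums.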

How the data were processed

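UMI counts per gene and cell barcode were deposited as made by the authors with Cell Ranger (7.1.0 in the methods, 8.0.1 in the file headers) against EquCab3.0 with the Ensembl annotation. They were checked to be whole numbers. The study's filters on UMIs, genes and mitochondrial UMIs were applied again. Its assignment of cells to mares and its removal of doublets rest on the reads and were not repeated, and no doublets were removed.

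Gene totals over the kept cells of a library were divided by its UMIs (CPM, per 1000000). The log2 ratio of TGF-β1 to control carries no pseudocount and is given with exact (Clopper-Pearson) 95% intervals of counting error. No ratio was given where both libraries had 3 or fewer UMIs. Cells were thinned to 20000 UMIs for shares, spread and correlations. Clusters were rebuilt in Seurat 5.3.0 (SeuratObject 5.2.0, R 4.3.3) after canonical correlation integration (30 dimensions, 2000 variable genes, resolution 0.5), leaving 72 sterol and lipid genes out, and do not correspond to the study's numbers. Python 3.11.15, numpy 2.4.6, scipy 1.17.1, pandas 2.3.3 and matplotlib 3.10.9 were used. The ratios, thinning and correlations were tested on simulated data.

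The 8 members and all lists were chosen with earlier results of these data known. Named were every member, list genes averaging 10 CPM or more and past 1.5-fold, pathway neighbours of members, *SREBF1*, *SCAP*, *INSIG2*, *ABCA1*, and the 10 highest and 5 lowest genes by r with the summed members. Some genes under this rule are not reported here. The leading genes of cluster 7, the LXR genes, *STAR*, *CYP11A1*, *CYP19A1* and markers given as checks were named outside this rule, after their values were seen. Contractile, matrix, unfolded protein response and marker lists were also examined. Alternatives covered cell filters, depth, scaling, cluster shares, cycling cells, low genes, correlation measures and clustering settings.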

Additional observations from a re-analysis of the deposited data

How the results depend on the processing

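With 1 library per condition, no result has a replicate error, and counting intervals say nothing of the spread between mares or cultures. The summed log2 ratio of the members (0.16) was above 0 under all 12 other settings, from 0.09 to 0.28. It moved beyond its counting interval to 0.279 in cells with 30000 to 60000 UMIs, 0.196 with the mean of per-cell CPM, 0.186 with a median-of-ratios size factor, 0.185 with cells thinned to 20000 UMIs and 0.093 as the mean of the 8 log2 ratios. Among settings added after seeing the data, it was 0.064 without *IDI1*, and 0.33, 0.49, 0.34, 0.22, 0.00 and 0.03 in bands of UMIs per cell from 20000 to 30000 up to at least 80000. The median log2 ratio moved only with cells of 30000 to 60000 UMIs, to 0.147. The count of 0 members past 1.5-fold held under 11 settings. These do not include the bands added later, where *IDI1* was past that limit at 20000 to 30000 and 30000 to 40000 UMIs (log2 ratios 0.70 and 0.77). Under the 11 settings, only *LSS* changed sign, in 4 of 11. The share of all genes past 1.5-fold was 17.0% with a minimum of 1 CPM and 12.5% with 50 CPM. The median pairwise r was 0.184 in control and 0.123 in TGF-β1 cells without thinning, 0.144 and 0.094 in cells thinned to 40000 UMIs, and 0.088 and 0.076 over all barcodes with at least 20000 UMIs. It was 0.090 in control cells with log2 UMIs regressed out (added after seeing the data) and 0.058 in TGF-β1 cells with cluster means subtracted. Without integration, only 1 of 9 clusters held at least 50 cells of each library, and 0 clusters had a higher sum after TGF-β1, with a log2 ratio of -0.10 in that cluster. No paired analysis was possible because the assignment of cells to the mares in both pools rests on the reads, which were not used here.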

Other observations

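Contractile genes, which mark the myofibroblast state, varied with the cholesterol genes over control cells. In TGF-β1 cells their r was lower. The 95th percentile of r over 7651 genes was also lower, 0.081 against 0.101 in control cells, and the difference was not tested. r of the 7 genes with the 8 summed members ran from 0.126 to 0.338 in control (median 0.239) and from 0.044 to 0.194 in TGF-β1 cells (median 0.119), where the lowest are not read as relations. r of the summed contractile list was 0.298 in control and 0.149 in TGF-β1 cells, and 0.216 and 0.154 with depth and cluster means taken out, a setting chosen after seeing the data. For *ACTA2*, smooth muscle actin, r was 0.338 in control and 0.194 in TGF-β1 cells. Control cells in the lowest 25% of the summed members held a mean of 46.9 thinned *ACTA2* UMIs and those in the highest 25% held 83.9, while in TGF-β1 cells the means were 84.8 and 98.8. Of the 7 contractile genes, 6 were higher in the TGF-β1 library and 3 passed 1.5-fold, *TPM1* (log2 ratio 1.26), *CNN1* (1.23) and *TAGLN* (0.62). Of the 7658 genes averaging at least 10 CPM, 51.4% were higher and 12.7% passed 1.5-fold.

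The matrix list, which held the genes *FN1* (log2 ratio 1.65), *TGFBI* (2.32) and *LOX* (1.38) past 1.5-fold between the libraries, had a summed r of 0.025 in control and 0.029 in TGF-β1 cells with the cholesterol genes. The unfolded protein response list had a summed r of 0.086 and 0.131, and 3 of its 7 genes were higher and 4 lower after TGF-β1. The cycling markers had a summed r of 0.060 and 0.015, and 2.46% of control and 1.93% of TGF-β1 cells held at least 3 of them after thinning. *STAR*, which brings cholesterol into mitochondria for steroid synthesis, had 47.0 CPM in control and 55.1 CPM in TGF-β1 cells (log2 ratio 0.23, 0.19 to 0.27), and r of -0.021 and -0.067 with the summed members. *CYP11A1*, which makes pregnenolone from cholesterol, had 96 UMIs in control and 2 UMIs in TGF-β1 cells (log2 ratio -5.65, -8.71 to -3.75). *CYP19A1*, the aromatase gene, had no UMI in either library. The smooth muscle or pericyte list had 742 summed CPM in control and 657 in TGF-β1 cells. Of its 3 genes with at least 10 CPM, 1 was higher after TGF-β1, *RGS5* (51.7 and 61.1 CPM), and 2 were lower, *MYH11* (42.9 and 25.3 CPM) and *DES* (646 and 569 CPM). Of the 8 fibroblast markers, 4 were higher and 4 lower after TGF-β1. Those past 1.5-fold were lower, *VIM* (4399 CPM in control and 2240 CPM in TGF-β1 cells), *PDGFRA* (50.5 and 16.7 CPM) and *PDGFRB* (80.1 and 49.0 CPM). Of the other markers with at least 10 CPM, *KRT8* (114 and 4.48 CPM), *KRT7* (19.3 and 7.05 CPM) and the cycling marker *TOP2A* (13.2 and 8.25 CPM) were past 1.5-fold lower. The endothelial list had 0.784 and 0.410 summed CPM and 3 genes of the immune list 42.7 and 43.1, nearly all of it *CD68*. *CD14*, which has 2 gene identifiers, was left out of that sum.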
